A study of Mus musculus with 7 samples.

Results

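The cytosolic ribosome is built from a large and a small subunit, and the proteins of both are encoded by nuclear genes whose symbols begin with Rpl (large) or Rps (small). The genes described here were all symbols of that form followed by a digit, by a letter-only suffix (as in Rpsa and Rplp0) or by both, without names ending in -ps, which mark pseudogenes, and without the Rps6k kinases. The matrices held 105 symbols starting with Rpl or Rps; 9 -ps names, 10 Rps6k names and Rps19bp1, a regulator of a deacetylase, were set aside. That left 85 of 31053 genes, of which 77 were canonical ribosomal proteins (46 of the large and 31 of the small subunit) and 8 were paralogues, Rpl3l, Rpl7l1, Rpl10l, Rpl22l1, Rpl36al, Rpl39l, Rps27l and Rps27rt. Every one of the 85 had at least 1 unique molecular identifier (UMI, the tag that marks 1 captured RNA molecule), and Rpl10l alone stood under 100, with 5. For 8 genes, among them Rpl7a, Rpl13a, Rps12 and Rpl36a, a -ps copy was also listed, so that reads could be split between near-identical copies.

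The data were single-cell RNA sequencing (10x 3′ chemistry) of whole mouse bone marrow taken from spine, hip, femur and tibia after lysis of red blood cells with ACK buffer, which limits what can be said of late erythroid cells. Cells of each sample were marked with a hashtag antibody and pooled, and 7 libraries from 4 pools (WBM_1 to WBM_4) were sequenced. The hashtag samples fell by their prefixes into HRO (6 samples), HRY (3), WTO (4) and WTY (3). Samples HRO.5 and HRO.6 are described by the submitters as chronic and TET2-mutated; they formed a group of their own, called chronic here. HR.7 and HR.AE carry none of these prefixes and entered no comparison. Beyond that the labels used here give no genotype, strain, age, sex or treatment of a hashtag sample, nor is it said that each hashtag was a separate animal, so the spread between samples may be partly technical.

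Ribosomal protein mRNAs are among the most abundant of a growing cell. Most carry a 5′ terminal oligopyrimidine tract (TOP), a C at the cap followed by a run of C and T, through which the kinase mTORC1 and the protein LARP1 control their translation and stability together. Ribosome production is high in dividing progenitors, declines as neutrophils mature, and red cells lose their ribosomes as they mature; mutations in RPS19, RPL5 and other members cause the human red-cell aplasia Diamond-Blackfan anaemia.

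Libraries held between 25343305 and 95553827 UMIs, and 43024 cells passed the filters, 38820 of them in samples with a group. Cells were placed in classes by markers that included no ribosomal protein gene, and a class name means only that its markers scored highest. All 10 progenitor markers were highest in the progenitor class, although Pf4, a platelet gene, led it by fold, with Angpt1 and Meis1 among those behind. The libraries WBM_3a and WBM_3b shared 2078 barcodes, of which the copy with fewer UMIs was removed. WBM_1 was counted with Cell Ranger 3.0.0 and the other libraries with 3.1.0, per the file headers, and many levels below differed between pools. WBM_1 also stood apart in its barcodes, sharing 0 to 5 with each other library. Apart from WBM_3a with WBM_3b, the other libraries shared 9 to 51 with one another. The part of these differences in the levels was not tested.

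Start sites are shown first for the genes on which the neutrophil results turn: Rpl14, Rpl12 and Rps2, which fell furthest in one of the neutrophil comparisons, Rps9, Rps27 and Rpl37, which stood apart among the canonical genes, and the paralogue Rpl3l. The sequences are RefSeq windows on GRCm38.p6, 30 bases before to 25 bases from the annotated start, 5′ to 3′ on the transcribed strand; capitals mark a C followed by at least 7 pyrimidines.
Rpl14 (60S protein; chr9:120571487-120571541, + strand): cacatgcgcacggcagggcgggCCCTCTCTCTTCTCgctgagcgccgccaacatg
Rpl12 (60S protein; chr2:32961682-32961736, + strand): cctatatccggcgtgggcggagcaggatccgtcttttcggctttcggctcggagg
Rps2 (40S protein; chr17:24720033-24720087, + strand): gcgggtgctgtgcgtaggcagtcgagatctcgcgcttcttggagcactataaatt
Rps9 (40S protein; chr7:3704011-3704065, + strand): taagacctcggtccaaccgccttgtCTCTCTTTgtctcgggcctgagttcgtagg
Rps27 (40S protein; chr3:90213624-90213678, - strand): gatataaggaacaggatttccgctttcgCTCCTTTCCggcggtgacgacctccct
Rpl37 (60S protein; chr15:5116583-5116637, + strand): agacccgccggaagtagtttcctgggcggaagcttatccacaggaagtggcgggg
Rpl3l (muscle paralogue of Rpl3; chr17:24727796-24727850, + strand): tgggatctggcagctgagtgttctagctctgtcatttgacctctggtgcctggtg

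A RefSeq window was found for 65 of the 85 genes. A run of C and at least 7 pyrimidines on the transcribed strand, within 25 bases either side of the start, was present in 33 of these 65 (50.8%), against 4770 of all 27025 genes with a window (17.7%). The heptamer CCGGAAG, a core read by ETS-family factors, was present on either strand of the 300-base window in 26 of 65 (40%), against 9.93% of all genes. A match describes the letters only, and a missing match says only that these letters are not in this window. Rpl14, which fell furthest in immature neutrophils against progenitors, and Rps9, which fell least of the canonical genes there, both had the run. Across the 57 canonical genes with a window, the median log2 change of mature neutrophils over progenitors was -2.01 for the 30 with a run and -2.11 for the 27 without.

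Ribosomal protein genes took 54578967 of the 304431546 UMIs in the kept cells (17.9%), and their share differed widely between classes. The share is the percent of all UMIs of a class in 1 hashtag sample, for classes with at least 20 cells in that sample. In progenitors the lowest, median and highest sample had 21.5%, 29.9% and 41.5% (9 samples). These 9 were 5 HRO, 2 HRY, 1 chronic and 1 WTO sample, with none of WTY. Comparisons with progenitors within samples thus rest almost wholly on samples with HR prefixes. Early neutrophils, marked by the granule enzyme genes Elane and Mpo, had 19.9%, 24.5% and 34.1% (18 samples). Immature neutrophils had 3.92%, 5.47% and 7.82%, and mature neutrophils 2.44%, 3.63% and 8.95% (18 samples each). No sample of the immature or mature neutrophil classes reached the lowest sample of any of the classes progenitor, early neutrophil, monocyte, pro-B and pre-B, mature B or early erythroid.

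**Figure D1:**
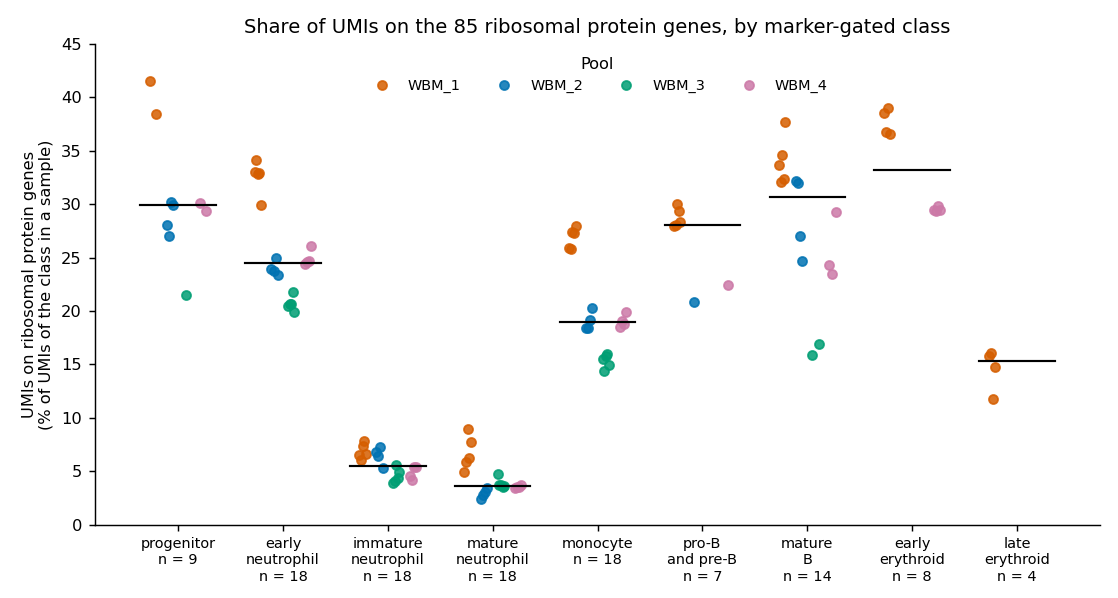
Share of UMIs on ribosomal protein genes (vertical axis, percent of all UMIs) in each marker-defined class (horizontal axis), 1 point per hashtag sample, coloured by pool. Immature and mature neutrophils lay between 2.44% and 8.95%, and in progenitors, early neutrophils and monocytes the WBM_1 samples lay highest and the WBM_3 samples lowest.

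The remaining branches lay higher. Monocytes had 14.4%, 19% and 28% (18 samples), pro-B and pre-B cells 20.8%, 28.1% and 30% (7 samples), and mature B cells 15.9%, 30.6% and 37.7% (14 samples). Early erythroid cells had the highest median of the classes on these branches, with 29.4%, 33.2% and 39% (8 samples), and late erythroid cells had 11.8%, 15.3% and 16.1% (4 samples, all of WBM_1, 96 cells in all). The level differed between pools, and the cause was not tested. Monocyte shares were 25.8% to 28% in WBM_1, 18.4% to 20.3% in WBM_2, 14.4% to 16% in WBM_3 and 18.5% to 19.9% in WBM_4. There was no overlap between WBM_1, WBM_3 and the other pools. Classes were therefore compared within hashtag samples, by paired permutation tests that flip the sign of each sample's difference, with p-values adjusted over 12 class pairs.

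Along the neutrophil path the drop fell between the early and the immature class. Immature neutrophils had 5.7% ± 1.21 and early neutrophils 25.7% ± 4.77 in the same 18 samples (mean ± SD), a difference of -20 points, lower in 18 of 18 samples (permutation test, two-sided, p = 2e-05, adjusted p = 0.00024). This pair was added after the data had been seen. Early neutrophils had 25.6% ± 3.66 and progenitors 30.7% ± 5.94 in 9 samples, a difference of -5.1 points that was negative in all 9 (exact permutation test, p = 0.00391, the smallest possible, adjusted p = 0.00781). Against the same 9 progenitor samples, immature neutrophils had 6.23% ± 0.829 (-24.5 points, 0.207 times the progenitor share) and mature neutrophils 4.38% ± 2.31 (-26.3 points, 0.138 times), each lower in 9 of 9 samples with the same exact p.

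Mature neutrophils had 4.38% ± 1.75 and immature neutrophils 5.7% ± 1.21 in 18 samples, lower in 15 and higher in 3 (-1.32 points, permutation test, p = 0.00336, adjusted p = 0.00781). Within WBM_1 alone the difference was -0.131 points; the mature neutrophils of that pool also carried 46.8 to 167 CPM (UMIs of the gene per 1000000 UMIs of the class in a sample) of the B-cell gene Cd79a, against 0 to 22.1 in the other pools, and 923 to 22759 CPM of the globin gene Hbb-bs, against 4.31 to 1270. The part of such RNA from other cells in the share was not tested. Neutrophils also devote many UMIs to a few genes (S100a8 alone held 14.5% of UMIs in the class where it was highest), and the share falls when these rise. Without the 18 genes that hold at least 1% of a class's UMIs, immature neutrophils had a median of 10.2% and early neutrophils 26.7%, a mean difference of -17.2 points; mature neutrophils had a median of 5.81%, which made the mature-minus-immature difference -3.41 points.

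In UMIs per cell, where no share is involved, the classes stood in another order. Progenitors held on average 3075 ribosomal protein UMIs and 7307 other UMIs per cell, early neutrophils 4400 and 13022, immature neutrophils 311 and 5181, and mature neutrophils 74.9 and 1736. Other UMIs per cell were thus lower in immature than in early neutrophils by a smaller factor than ribosomal protein UMIs. Counts per cell carry capture efficiency and depth as well as RNA content: within WBM_1 to WBM_4 the early neutrophil mean was 3865, 5193, 2641 and 6475 ribosomal protein UMIs, and in every pool the immature neutrophil mean was lower (245, 464, 193 and 390).

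Single genes were tested with edgeR's quasi-likelihood test on summed counts per class and hashtag sample over 10711 genes. The hashtag sample was a term, with Benjamini-Hochberg adjustment over all genes. All the classes compared and all grouped samples entered the same fit, so genes called do not rest only on samples with both classes. Of the 85 genes 83 were tested, Rpl10l and Rpl39l being too low. In immature against early neutrophils 1 of the 83 rose and 82 fell at an adjusted p under 0.05, against 42.2% and 38.2% of all genes tested. The median log2 change was -1.46 for the ribosomal protein genes and 0.06 for all genes. In immature neutrophils against progenitors 1 rose and 81 fell (38.3% and 36.4% of all genes), with a median of -1.29 against 0.05; Rpl14 (-2.20), Rpl12 (-2.18) and Rpl36a (-2.17) were lowest, and Rpl3l (2.68), Rpl7l1 (-0.13, adjusted p = 0.645) and Rps9 (-0.30) highest. In mature neutrophils against progenitors 1 rose and 80 fell (34.6% and 46.1% of all genes), with a median of -2.01 against -0.33. The subunits moved alike: in that comparison all 46 large-subunit genes and 30 of 31 small-subunit genes fell, with medians of -2.01 and -2.13.

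Early neutrophils against progenitors were the exception on this path, since the direction there depended on the scaling. By edgeR 16 genes rose and 1, Rps27rt (-0.36, SE 0.143), fell (27.1% and 25.0% of all genes), with a median of 0.13, while DESeq2, whose size factors moved the median of all genes to -0.25, called 5 higher and 28 lower with a median of -0.16. Relative to all genes the ribosomal protein genes stood 0.10 higher by edgeR and 0.09 higher by DESeq2, whereas the share was lower in every sample. Rpl36al (0.84, SE 0.133), the p53-responsive paralogue Rps27l (0.78, SE 0.164) and Rpl10 (0.57, SE 0.138) were highest under edgeR (adjusted p = 5.28e-08, 2.89e-05 and 0.000311), and these 3 were also higher by DESeq2. DESeq2 likewise shifted the median of all genes to -0.51 for immature and -0.76 for mature neutrophils against progenitors; relative to all genes the ribosomal protein medians were -1.34 and -1.32 (immature) and -1.67 and -1.64 (mature) by edgeR and DESeq2 in turn.

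**Figure D2:**
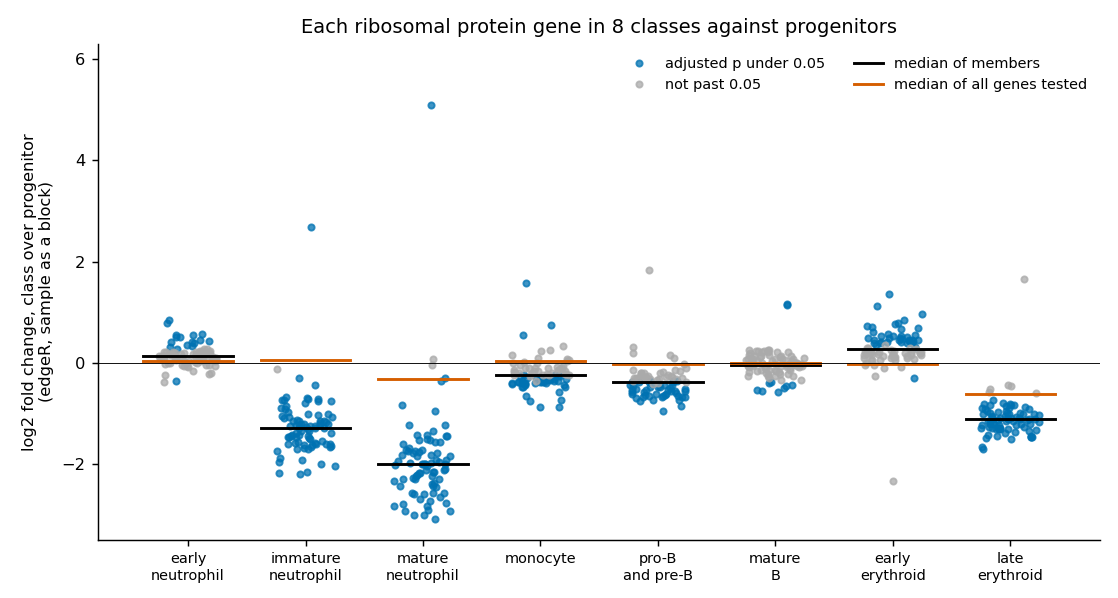
Log2 fold change of each tested ribosomal protein gene (vertical axis) in each of 8 classes against progenitors (horizontal axis), 1 point per gene from the edgeR fit, blue where the adjusted p was under 0.05, with an orange line at the median of all genes tested. The 2 neutrophil classes past the early stage and the late erythroid class lay lowest, with medians of -1.29, -2.01 and -1.12 against progenitors.

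Rpl12, a 60S protein of the stalk base, fell furthest in mature neutrophils. It had 1938, 3765 and 4393 CPM in the lowest, median and highest of 9 progenitor samples, and over 18 samples each 2037, 2644 and 3598 CPM in early, 198, 289 and 616 CPM in immature and 102, 153 and 420 CPM in mature neutrophils. Every mature and immature neutrophil sample lay below every progenitor and early neutrophil sample. The log2 change of mature neutrophils over progenitors was -3.10 (SE 0.144, edgeR adjusted p = 7.26e-38), and it was lower in 9 of 9 samples. Next came Rpl10a (-3.02, SE 0.145), a 60S protein, and Rpl36a (-3.01, SE 0.15), a gene with a -ps copy and the close paralogue Rpl36al.

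Rps2, a 40S protein at the mRNA entry site, fell furthest in immature against early neutrophils. Immature neutrophils had 283, 389 and 571 CPM and early neutrophils 2640, 3692 and 4929 CPM, with no overlap over 18 samples each. The log2 change was -2.48 (SE 0.141, edgeR adjusted p = 1.09e-31), followed by Rpl12 (-2.39, SE 0.118) and Rpl14 (-2.28, SE 0.118). Rpl14, a 60S protein, had 173, 244 and 335 CPM in immature and 1482, 2072 and 2685 CPM in early neutrophils.

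Among the genes with most UMIs over all kept cells were Rps9 (1279716), Rpl13 (1279643), Rps27a (1258543) and Rps24 (1216004). Rps9, a 40S protein, had the highest log2 change of the canonical genes in mature neutrophils against progenitors and in immature against early neutrophils. It had 5036, 5427 and 7115 CPM in progenitors, 3615, 4244 and 4875 CPM in early, 1572, 2059 and 3016 CPM in immature and 2169, 2765 and 4355 CPM in mature neutrophils. On the CPM scale it was lower in mature neutrophils than in progenitors in 9 of 9 samples; on the edgeR scale the log2 change was 0.07 (SE 0.12, adjusted p = 0.617), and by DESeq2 it was -0.31 (adjusted p = 7.33e-06). Within the ribosomal protein genes its place moved whatever the scaling: Rps9 held 7.29% of their UMIs in mature neutrophils, the highest of all 85, against 1.92% and rank 13 in progenitors. In immature against early neutrophils it fell by 0.29 on the log2 scale (SE 0.0944, edgeR adjusted p = 0.00401), against the median of -1.46.

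In mature against immature neutrophils 5 genes rose and 75 fell (26.5% and 39.6% of all genes; median -0.74 against -0.17). The 5 were Rpl3l, the retrogene Rps27rt (0.64, SE 0.116), Rps27 (0.49, SE 0.09), Rpl37 (0.39, SE 0.0968) and Rps9 (0.37, SE 0.0949), the last with an edgeR adjusted p of 0.000413. Rps27 had 638, 937 and 3852 CPM in mature and 422, 619 and 2116 CPM in immature neutrophils and was higher in 18 of 18 samples; Rpl37 had 797, 1099 and 2692 CPM in mature and 588, 772 and 1600 CPM in immature neutrophils and was higher in 16 of 18. Rps27 split by pool, with 2141 to 3852 CPM in mature and 1648 to 2116 CPM in immature neutrophils of WBM_1, against 638 to 1155 CPM and 422 to 689 CPM in the other pools. Rps27rt is a near-identical copy of Rps27, so the values of this pair are uncertain. Among the genes that fell furthest in this comparison were Rpl22l1 (-1.30, SE 0.102) and Rpl36al (-1.28, SE 0.12).

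**Figure D3:**
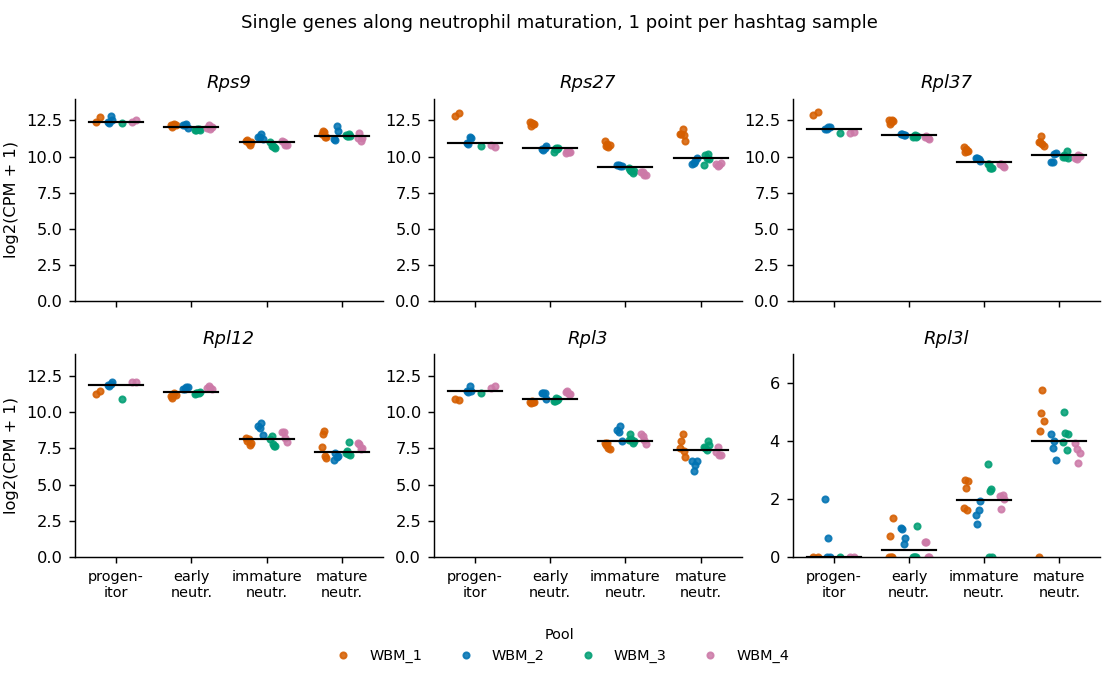
Levels of Rps9, Rps27, Rpl37, Rpl12, Rpl3 and Rpl3l (vertical axis, log2 of CPM plus 1) in progenitors and in early, immature and mature neutrophils (horizontal axis). Each point is 1 hashtag sample, coloured by pool, and a horizontal black line marks the median of each class. Rpl12 and Rpl3 dropped at the immature stage, Rps9 stayed within 1572 to 7115 CPM, and Rpl3l appeared at the last stages, with a median of 14.9 CPM in mature neutrophils.

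Rpl3l, a paralogue of Rpl3 best known from heart and skeletal muscle, was the only member that rose in mature neutrophils against progenitors. It had a median of 0 CPM in progenitors (0 to 2.96, 7 of 9 samples at 0), 0.18 CPM in early (0 to 1.52), 2.94 CPM in immature (0 to 8.16) and 14.9 CPM in mature neutrophils (0 to 53.4, 17 of 18 samples at 8.46 or more and HRO.5 at 0). These levels are small, with 132 UMIs in all mature neutrophils and 4 in all progenitors. Rpl3 itself, a 60S protein near the peptidyl transferase centre, had medians of 2843 CPM in progenitors, 1920 CPM in early, 260 CPM in immature and 165 CPM in mature neutrophils. The log2 change of Rpl3l was 5.09 in mature neutrophils over progenitors (SE 0.539, edgeR adjusted p = 4.98e-15), higher in 9 of 9 samples; the fold rests on the 4 progenitor UMIs. It was 2.41 in mature over immature neutrophils (SE 0.243, adjusted p = 8.17e-16, higher in 17 of 18 samples).

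For every 100 UMIs of Rpl3, pooled over samples, there were 0.0273 of Rpl3l in progenitors, 0.0236 in early, 0.832 in immature and 10.4 in mature neutrophils. By sample this ran from 0 to 0.104 in progenitors, 0 to 0.0891 in early, 0 to 3.03 in immature and 0 to 33.3 in mature neutrophils. The CPM are not divided by gene length, but the ratio of ratios does not depend on it. The Rpl3l gene ends 498 bases upstream of Msrb1 on the same strand of chromosome 17 (GRCm38), and Msrb1, a methionine sulfoxide reductase gene, is one of the markers that chose the mature neutrophils. Cells of that class with an Msrb1 UMI had 15.4 CPM of Rpl3l (95% exact Poisson interval 12.8 to 18.2, counting error only) and those without had 11.3 CPM (1.37 to 40.8, 2 UMIs). How far reads of one gene were counted to the other was not tested. Elsewhere Rpl3l had medians of 2.1 CPM in monocytes and 0 CPM in mature B and early erythroid cells. In pro-B and pre-B cells the median was 4.34 CPM (0 to 14, 7 samples), from 6 UMIs in all. That median lay above the 2.94 CPM of immature neutrophils and below that of mature neutrophils.

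The other paralogues were read against their parents as ratios of UMIs pooled over samples, although the classes differed in how many cells each pool gave. Rpl22l1, a paralogue that can take the place of Rpl22 in the mouse ribosome, had 44.9 UMIs per 100 of Rpl22 in progenitors, 47.8 in early, 54.3 in immature and 37.3 in mature neutrophils, and 21.9 in mature B cells. Its ratio by sample ran from 34.4 to 75.8 in progenitors, 36.4 to 79.3 in early, 35.5 to 92.5 in immature and 17.5 to 66.9 in mature neutrophils. In mature B cells it ran from 15.6 to 57.9, and all these ranges overlapped. Rps27l had 16.3 UMIs per 100 of Rps27 in progenitors, 30.8 in early, 16 in immature and 6.63 in mature neutrophils, and 40.2 in early erythroid cells, where the pooled ratio was highest. By sample the ratio ran from 11.4 to 26.6 in progenitors, 18.6 to 56.7 in early, 11.6 to 30.2 in immature and 4.69 to 12.9 in mature neutrophils, and 31.5 to 56 in early erythroid cells. No mature neutrophil sample reached an early neutrophil or early erythroid one, while progenitors overlapped each neutrophil class. Rpl7l1, a relative of Rpl7, ran from 2.17 per 100 in pro-B and pre-B cells to 4.99 in immature neutrophils. Samples of these classes overlapped, at 0 to 4.15 in pro-B and pre-B cells and 2.64 to 8.47 in immature neutrophils. Rpl39l, a testis paralogue, stayed at or under 0.162 per 100 of Rpl39 in every class, and Rpl10l, a testis paralogue of Rpl10, had at most 1 UMI in any class. Rpl36al and Rpl36a, which may share reads, differed widely between samples, from 5.71 to 67.2 per 100 in mature neutrophils and from 17.6 to 112 in immature neutrophils.

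Genes of the same pathway outside the rule were described from lists chosen with earlier results of these data known. In immature against early neutrophils 29 of 30 ribosome biogenesis genes fell and 1 rose (median -2.59 against 0.06 for all genes, of which 38.2% fell and 42.2% rose). Nop16, a nucleolar protein, fell by 3.80 on the log2 scale (SE 0.17) and Myc, the transcription factor that drives ribosome production, by 3.74 (SE 0.174), while Polr1a, the catalytic subunit of RNA polymerase I, rose by 0.38 (SE 0.115, edgeR). Of 28 translation factors 24 fell and 3 rose (median -0.86): the elongation factor subunits Eef1g and Eef1b2 fell by 2.63 and 1.92, and the initiation factors Eif1 and Eif4a2 rose by 0.57 and 0.48. Of 77 mitochondrial ribosomal protein genes 71 fell and 2 rose (median -0.89), with Mrps28 (-3.22) and Mrps6 (-2.67) lowest; the 2 were Mrps21 (0.28) and Mrps18c (0.19, but -0.06 by DESeq2). All 3 tested snoRNA host genes with TOP starts fell, Epb41l4aos by 2.39 and Snhg12 by 1.61.

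Rack1, a 40S scaffold protein, and Fau, which encodes a ubiquitin-like protein fused to a ribosomal protein, are ribosomal protein genes outside the naming rule. In mature neutrophils against progenitors Rack1 fell by 2.48 (SE 0.136), while Fau rose by 0.79 (SE 0.111, edgeR). In mature against immature neutrophils the log2 changes were -0.85 for Rack1 and 0.42 for Fau. Of 10 tested p53 targets, 6 rose and 2 fell in immature against early neutrophils, where 42.2% and 38.2% of all genes did: Trp53inp1, an autophagy gene, rose by 3.49 (SE 0.172) and Sesn2, an inhibitor of mTORC1, by 1.89 (SE 0.188), while the nuclease gene Aen fell by 2.48 and the apoptosis gene Bax by 1.32.

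Monocytes had a larger share of ribosomal protein UMIs than immature and mature neutrophils, with no overlap between samples, and a lower median than early neutrophils. They had 20.7% ± 4.18 and progenitors 30.7% ± 5.94 in the same 9 samples, a difference of -10 points (0.675 times), lower in 9 of 9 (exact permutation test, p = 0.00391, adjusted p = 0.00781). By edgeR 3 genes rose and 41 fell (33.1% and 29.4% of all genes), with a median of -0.25 against 0.04; DESeq2, with all genes at -0.42, called 1 higher and 78 lower, and 14 fell without pool WBM_2. The 3 that rose were Rpl36al (0.74, SE 0.132), Rpl10 (0.54, SE 0.138, but 0.07 and adjusted p = 0.584 by DESeq2), which joins the large subunit late in its assembly, and Rpl3l (1.58, SE 0.677, adjusted p = 0.0355, 0.256 by DESeq2). Rpl36al had 251, 617 and 766 CPM in 18 monocyte samples and 165, 407 and 567 CPM in 9 progenitor samples, which overlapped. Rpl22l1 and Rpl36a fell most (-0.88 each), then Rpl14 (-0.76).

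In the B lineage the share was higher in the mature class. Mature B cells had 31.2% ± 5.24 and pro-B and pre-B cells 26.7% ± 3.59 in 7 samples, higher in 7 of 7 (4.54 points, exact permutation test, p = 0.0156, the smallest possible, adjusted p = 0.0268); 5 of the 7 samples were of WBM_1, and without that pool the difference was 2.48 points. By edgeR 49 genes rose and 0 fell in mature B against pro-B and pre-B cells (13.3% and 14.5% of all genes), with a median of 0.40 against 0.01, and 8 rose without WBM_1; DESeq2 called 72 higher and 0 lower. At an unadjusted p under 0.05, 57 were higher and 2 lower by edgeR. Rps27rt (0.96, SE 0.165), Rps27 (0.84, SE 0.131) and the 40S protein gene Rps7 (0.74, SE 0.155) rose most. Against progenitors, pro-B and pre-B cells had 26.4% and progenitors 36.6% in 3 samples, lower in 3 of 3 (exact permutation p = 0.25, the smallest 3 pairs allow), with 46 genes lower and 0 higher by edgeR (16.1% and 15.0% of all genes; 58 and 1 at an unadjusted p under 0.05; 76 and 0 by DESeq2) and 4 lower without WBM_1. Rpl14 (-0.95), Rpl3 (-0.85) and Rpl13 (-0.75), all of the 60S subunit, fell most.

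The share of mature B cells against progenitors depended on HRO.7 and HRO.8. It was 29.3% ± 6.5 in mature B cells and 30.8% ± 6.33 in progenitors over 8 samples (-1.53 points, range -6.83 to 4.99, exact permutation p = 0.32, adjusted p = 0.349). It was higher in mature B cells in HRO.7 (32.2% against 28.1%) and HRO.8 (32% against 27%), whose mature B class carried the chemokine gene Ccl22, and lower in the other 6. Without these 2 samples, a setting added after the data had been seen, the difference was -3.55 points (exact permutation p = 0.0312, adjusted p = 0.0469). That p is the smallest 6 pairs allow. Leaving out the only samples on the higher side fixed it in advance, so no conclusion is drawn from it. By edgeR 2 genes rose and 8 fell (19.6% and 21.8% of all genes), with a median of -0.04 against -0.01. The 2 were Rps27 (1.15, SE 0.122, adjusted p = 2.94e-14) and its copy Rps27rt (1.16, SE 0.155). Rps27 had 2122, 4095 and 21331 CPM in 14 mature B samples and 1649, 1948 and 8231 CPM in 9 progenitor samples, and was higher in 8 of 8 samples with both classes. The genes lowest in mature B cells were Rps27l (-0.58), Rpl22l1 (-0.55) and Rpl15 (-0.54), a 60S protein. The gene that led the mature B class by fold was Ccl22, a chemokine, ahead of the B-cell genes Cr2, Ms4a1, Fcer2a, Bank1 and Ighd.

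Early erythroid cells had 33.7% ± 4.8 and progenitors 34.8% ± 6.02 in 4 samples (-1.1 points, exact permutation p = 0.25; 4 pairs allow no p below 0.125). By edgeR 37 genes rose and 1 fell (29.0% and 30.9% of all genes), with a median of 0.27 against -0.02; DESeq2 called 24 higher and 7 lower, and the median relative to all genes was 0.30 and 0.32. Rps27l rose most (1.36, SE 0.191, adjusted p = 1.04e-09), with 664, 1305 and 2048 CPM in 8 early erythroid samples and 293, 370 and 1010 CPM in 9 progenitor samples. Rps2 rose by 1.13 (SE 0.206), with 5565, 6936 and 7646 CPM in early erythroid and 2324, 3057 and 4553 CPM in progenitor samples, which did not overlap. Rplp0, the stalk protein, rose by 0.96 (SE 0.18), and Rps24, a 40S protein, was the gene that fell (-0.30, SE 0.13, adjusted p = 0.0355, lost on leaving out any of the pools WBM_1, WBM_2 or WBM_4). Of 30 biogenesis genes 26 rose, led by Nhp2 (1.29) and Rrp9 (1.21), both snoRNP proteins. Of 28 translation factors 21 rose, led by Eif2s2 (1.18) and Eif5a (1.07), and 1, Eif4a2, fell (-0.44); 67 of 77 mitochondrial ribosomal protein genes rose, led by Mrps36 (2.07) and Mrpl47 (1.61).

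Late erythroid cells had 15.6% ± 0.658 and early erythroid cells 38% ± 1.29 in 3 samples, all of WBM_1 (-22.5 points, lower in 3 of 3, exact permutation p = 0.25, the smallest possible). By edgeR 79 genes fell and 0 rose (19.4% and 10.5% of all genes), with a median of -1.46 against -0.67; 0 were higher at an unadjusted p under 0.05, and DESeq2 called 79 lower and 1 higher, Rpl3l, with 1 UMI in each class. Globins take much of the share at this stage: without the 18 abundant genes late erythroid cells had 25.4% to 29.9%, and the difference was -10.8 points. Rpl14 (-2.17), Rps2 (-2.13) and Rps27l (-1.96) fell most. Against progenitors 77 fell and 0 rose by edgeR (9.78% and 5.19% of all genes), with Rps6, the 40S substrate of S6 kinase, lowest (-1.71), then Rpl14 (-1.66) and Rpl36 (-1.51); 0 were higher at an unadjusted p under 0.05 or by DESeq2. Markers of other cells stood higher in the late erythroid class: the 8 mature neutrophil markers summed to 3963 to 11727 CPM in late erythroid samples and 206 to 1366 CPM in early erythroid samples, and the 8 immature neutrophil markers to 2927 to 9497 CPM and 286 to 2954 CPM. Their part in these values was not tested.

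Between the groups no share differed past an adjusted p of 0.05 in 27 comparisons, and 4 had an unadjusted exact p under 0.05, the lowest 0.0357. HRO and WTO, which shared a pool only in WBM_2 (3 and 1 samples) and WBM_4 (2 and 2), were compared in 6 classes, and immature neutrophils are given by sample. HRO samples had 4.96%, 5.36%, 5.41%, 6.4%, 6.81% and 7.28%, and WTO samples 4.21%, 4.58%, 5.34% and 6.07%, which overlapped. The means were 6.03% ± 0.926 in HRO and 5.05% ± 0.828 in WTO (0.984 points, exact permutation p = 0.119, adjusted p = 0.466). Within pools every HRO sample lay above every WTO sample: 6.4% to 7.28% against 5.34% in WBM_2, and 5.36% to 5.41% against 4.21% to 4.58% in WBM_4 (mean 1.24 points, exact permutation within pools, p = 0.0417, the smallest its 24 arrangements allow). HRY and WTY showed the same direction within pools, with 7.34% in HRY against 6.53% in WTY in WBM_1 and 4.34% to 5.54% in HRY against 3.92% to 4.1% in WTY in WBM_3. The exact permutation within pools gave p = 0.167, the smallest its 12 arrangements allow.

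**Figure D4:**
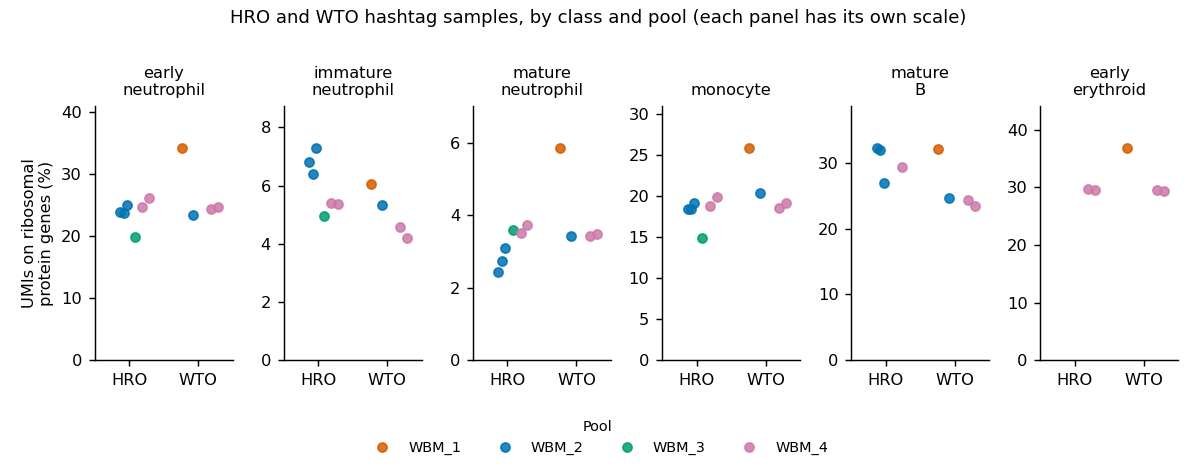
Share of UMIs on ribosomal protein genes (vertical axis, percent) in HRO and WTO samples, HRO left of WTO, for each class, points coloured by pool. In immature neutrophils the HRO samples of WBM_2 and WBM_4 lay above the WTO samples of the same pool, while in monocytes the WTO sample of WBM_2 lay above the HRO samples of that pool.

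In the other classes the pooled difference and the within-pool difference often had opposite signs. In early neutrophils HRO had 23.9% ± 2.14 and WTO 26.6% ± 5, a difference of -2.69 points, but 0.843 in WBM_2 and 0.964 in WBM_4. In monocytes HRO had 18.3% ± 1.72 and WTO 20.9% ± 3.31 (-2.66 points, exact p = 0.0905), with -1.67 in WBM_2 and 0.558 in WBM_4. In mature neutrophils HRO had 3.19% ± 0.515 and WTO 4.04% ± 1.2 (-0.858 points), with -0.655 in WBM_2 and 0.169 in WBM_4. In mature B cells HRO had 30.1% ± 2.46 and WTO 26.1% ± 3.98 (3.99 points, exact p = 0.171), with 5.76 in WBM_2 and 5.36 in WBM_4. In early erythroid cells HRO had 29.5% and 29.8% and WTO 29.4%, 29.5% and 36.8% (-2.2 points, exact p = 1; 10 splits allow no p below 0.1), and the 36.8% was the sample of WBM_1. The only WTO sample of WBM_1, WTO.3, carried the high level of that pool. Without the 18 abundant genes the pooled HRO minus WTO difference was 0.57 points in immature and -2.26 points in mature neutrophils. Within pools the immature neutrophil means were then 12.2% in HRO and 9.58% in WTO in WBM_2, and 10.2% in HRO and 8.85% in WTO in WBM_4. The mature neutrophil means were 4.52% in HRO and 5.36% in WTO in WBM_2, and 5.81% in HRO and 6.14% in WTO in WBM_4.

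Chronic samples came from WBM_1 alone and HRO samples from the other pools, so group and pool cannot be told apart. The chronic and HRO means were 31.4% and 23.9% in early neutrophils, 27.6% and 18.3% in monocytes, and 6.99% and 3.19% in mature neutrophils (exact p = 0.0357 each, adjusted p = 0.241). In WBM_1 the monocyte share of the other samples, 25.8% in WTO.3, 25.9% in WTY.3 and 27.4% in HRY.4, lay near that level.

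By gene, HRO against WTO was fitted per class with the pool as a term. Other groups with replicate samples of the class entered the same fit. HRO and WTO samples of pools without the other group could thus also bear on the contrast. In immature neutrophils 29 of 84 genes rose and 0 fell by edgeR (1.02% and 0.532% of all genes), with a median of 0.33 against 0.01 and 79 of 84 above 0. At an unadjusted p under 0.05, 71 were higher and 1 lower, and DESeq2 called 53 higher and 0 lower. Rpl10a had 434 ± 93.4 CPM in 6 HRO samples and 289 ± 21 CPM in 4 WTO samples (0.60, SE 0.106, adjusted p = 0.00972); Rpl12 had 451 ± 116 and 276 ± 55.3 CPM (0.59, SE 0.106, adjusted p = 0.00972), and Rpl36a 288 ± 80 and 230 ± 114 CPM (0.58, SE 0.127, adjusted p = 0.0264). Outside the naming rule Rack1 rose (0.45). Of 28 translation factors 1 rose, Eef1b2 (0.39), of 29 biogenesis genes 1 fell, Ubtf, a polymerase I factor (-0.50), and 0 of 77 mitochondrial ribosomal protein genes were called by edgeR or DESeq2 (4 higher and 1 lower at an unadjusted p under 0.05). The count moved with single samples: 0 genes rose without WTO.4, the only WTO sample of WBM_2, 12 without WTO.3, 13 without WTO.6 or HRO.11, 14 without HRO.10 and 19 without HRO.7. Without both HRO.7 and HRO.8 it was 10, and without the pool term 0.

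The immature neutrophils of WBM_2 also differed in maturity markers. The summed level of the 8 mature neutrophil markers was 3529, 3926 and 4539 CPM in HRO and 8823 CPM in WTO in WBM_2. In WBM_4 it was 10664 and 10396 CPM in HRO and 10595 and 10607 CPM in WTO. The share in WBM_4 was 5.36% to 5.41% in HRO and 4.21% to 4.58% in WTO. The 6 early neutrophil markers summed to 1106, 1220 and 1291 CPM in HRO and 809 CPM in WTO in WBM_2, and to 876 and 961 CPM in HRO and 704 and 935 CPM in WTO in WBM_4. The part of these markers in the difference was not tested.

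**Figure D5:**
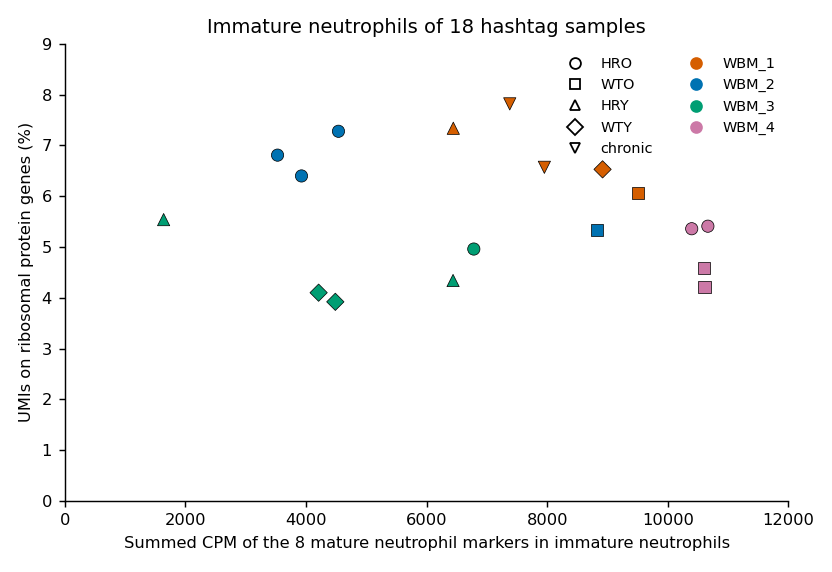
Share of UMIs on ribosomal protein genes in immature neutrophils (vertical axis, percent) against the summed level of 8 mature neutrophil markers in the same cells (horizontal axis, CPM), 18 hashtag samples, coloured by pool, with a symbol for each group. HRO samples of WBM_2 lay at 3529 to 4539 CPM and 6.4% to 7.28%, and its WTO sample at 8823 CPM and 5.34%.

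In mature neutrophils 0 of 83 genes were called for HRO against WTO by edgeR (1.73% and 0.298% of all genes were higher and lower). At an unadjusted p under 0.05 the count was 0, and DESeq2 called 0. In early neutrophils 0 of 82 were called (0.506% and 0.169% of all genes); 16 had an unadjusted p under 0.05 on the higher side and 1 on the lower side, and DESeq2 called 4 higher. In early erythroid cells 0 of 82 were called (0.527% and 0.277% of all genes); 4 had an unadjusted p under 0.05, all on the lower side, and DESeq2 called 0. In monocytes 12 rose and 1 fell of 82 (5.19% and 3.65% of all genes; median 0.07 against 0.01). An unadjusted p under 0.05 was found for 22 on the higher side and 9 on the lower side, and DESeq2 called 14 higher and 2 lower. Rps2 had 2434 ± 448 CPM in HRO and 1973 ± 305 CPM in WTO (0.49, SE 0.0877, edgeR adjusted p = 0.00344, n = 6 and 4); Rpl14 (0.41) and Rplp1 (0.33), a stalk protein, followed, and Rps27rt fell (-0.36, adjusted p = 0.0406, but 0.0536 by DESeq2). Other markers moved in the same monocytes: the 6 early neutrophil markers summed to 952 to 1597 CPM in HRO and 597 to 925 CPM in WTO, without overlap, and the 5 macrophage markers had medians of 69.2 CPM in HRO and 22.2 CPM in WTO. Their part in these calls was not tested. Of 77 mitochondrial ribosomal protein genes 14 rose in the same fit, led by Mrpl54 (0.78) and Mrpl52 (0.75); of 28 translation factors 3 rose, among them Eif5a (0.67) and Eif6 (0.63), an anti-association factor of the large subunit, and Tpt1, a TOP gene, fell (-0.25). The count of 12 moved with most samples: it was 2 when WTO.3 was left out, 3 when WTO.4 or HRO.10 was, 4 for HRO.12, 5 for HRO.7, HRO.8 or WTO.6, and 6 for WTO.5. Without the pool term it was 0.

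In mature B cells 29 rose and 0 fell of 82 (12.8% and 8.05% of all genes; median 0.49 against 0.03). At an unadjusted p under 0.05, 49 were higher and 1 lower, DESeq2 called 44 higher and 0 lower, while the edgeR count was 0 without HRO.11, 12 without WTO.4, 14 without WTO.5, 15 without WTO.6 and 55 without HRO.9. Rps27l had 381 ± 96.6 CPM in HRO and 147 ± 90.9 CPM in WTO (2.00, SE 0.335, edgeR adjusted p = 0.00562, n = 4 each). Rps2 had 3703 ± 1459 CPM in HRO and 1921 ± 389 CPM in WTO (1.28, SE 0.219), and Rplp0 3843 ± 646 CPM in HRO and 1694 ± 580 CPM in WTO (1.22, SE 0.194). Of 21 tested biogenesis genes 16 rose (median 1.45), led by Myc (2.27) and Nhp2 (2.16). Of 28 translation factors 11 rose, led by Eif5a (1.63) and Eif2s1 (1.38), and Eif4a2 fell (-0.77); of 46 mitochondrial ribosomal protein genes 17 rose, led by Mrpl12 (1.94) and Mrpl42 (1.93). The 5 mature B markers summed to 991 to 2451 CPM in HRO and 3123 to 4086 CPM in WTO, which did not overlap. Median UMIs per mature B cell were 5515 to 15882 in HRO and 767 to 2402 in WTO, also without overlap. B lineage markers summed to 3956 to 5135 CPM in HRO and 6180 to 8838 CPM in WTO, and immature neutrophil markers to 289 to 547 CPM in HRO and 549 to 3974 CPM in WTO. Early neutrophil markers summed to 33.7 to 62.9 CPM in HRO and 86.3 to 500 CPM in WTO. Ccl22, a chemokine gene named here after it was seen to lead the class, stood at 1540 CPM in HRO.7 and 2033 CPM in HRO.8, against 1.61 and 9.16 CPM in the other HRO samples and 0 CPM in the 4 WTO samples. Without HRO.7 and HRO.8 the share difference was 2.01 points and 20 genes rose. The part of these markers and of depth in the result was not tested.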

How the data were processed

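Raw UMI counts per gene and cell were deposited as 7 matrices, with hashtag counts for each library. Those of WBM_1 were not part of its matrix and covered 16008 of its 16012 barcodes. Cell Ranger 3.0.0 (WBM_1) and 3.1.0 (others) made the counts, per the file headers. The submitters' processing notes name bcl2fastq, Cell Ranger, Seurat and mm10. Hashtags were called with HTODemux (Seurat 5.3.0, quantile 0.99), the function that the series' design text names; no table of calls was used. Singlets with at least 300 genes and under 10% mitochondrial counts were kept (57925 singlets of 78720 barcodes, 43024 kept); only hashtag doublets were removed. A cell was given the class whose markers scored highest (score at least 0.15, margin at least 0.05, at least 2 markers); this scoring rule was set after marker levels had been seen and used no ribosomal protein gene.

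Counts were summed per class and hashtag sample with at least 20 cells. Shares were compared by permutation tests (between groups exact; between classes exact under 10 pairs, 100000 resamples otherwise), genes by edgeR 4.0.16 quasi-likelihood tests with TMM scaling and filterByExpr in R 4.3.3, and by DESeq2 1.42.0 as an alternative; an adjusted p under 0.05 counted as a call. The edgeR fit was tested on simulated data. Intervals cover counting error only. Share comparisons between classes pair classes of the same hashtag sample. The gene fits between classes used all grouped samples with at least 20 cells of a class, with the hashtag sample as a term. The genes, lists and tests were chosen with earlier results of these data known. Genes named were the 5 with most UMIs, the paralogues, in each class comparison the 3 highest and 3 lowest and those against the majority, in HRO against WTO up to 3 called in each direction, and in each other list up to 2 in each direction. A few genes that this rule names are not reported here. Cd79a, Hbb-bs and Ccl22 and the start sites shown were chosen after values had been seen. How reads matching several copies were counted is not given in the sources used here. Python 3.11.15, NumPy 2.4.6, SciPy 1.17.1, pandas 2.3.3 and Matplotlib 3.10.9 were used.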

Additional observations from a re-analysis of the deposited data

Results flagged for a closer look

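Of 31 groups of 4 to 10 samples and 3 differences between classes that were looked at, 8 values and 1 difference stood out; chance alone flags about 1 in 20 such groups. Each of the 8 values was far from the other samples of its group. Among the 4 WTO samples, WTO.3 had a ribosomal protein share of 34.1% in early neutrophils (the others 23.4% to 24.6%), 5.85% in mature neutrophils (3.42% to 3.48%) and 32.1% in mature B cells (23.5% to 24.7%). It was the only WTO sample of WBM_1, where the early neutrophil, mature neutrophil and mature B shares of all 5 samples lay above the median over all samples. HRO.10, the only HRO sample of WBM_3, had 14.9% in monocytes, against 18.4% to 19.9% in the other HRO samples, and its Rps27rt stood at 137 CPM in monocytes, against 26.2 to 55.5 CPM. Single genes stood apart for WTO.6, with 257 CPM of Rpl10a in immature neutrophils (the other WTO samples 296 to 301 CPM), for HRO.11, with 4805 CPM of Rplp0 in mature B cells (the other HRO samples 3422 to 3596 CPM), and for WTO.3, with 831 CPM of Rplp0 in mature B cells (the other WTO samples 1885 to 2068 CPM).

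The HRO minus WTO difference in share differed between immature neutrophils and monocytes by 3.64 points (immature minus monocyte share averaged -12.2 ± 1.58 points in 6 HRO samples and -15.9 ± 2.61 in 4 WTO samples (SD), exact permutation over 210 splits, p = 0.0143). Within pools it was 3.12 points in WBM_2 and 0.44 in WBM_4 (mean 1.78, exact permutation within pools, p = 0.0833). The same difference for immature minus mature neutrophils averaged 2.85 ± 1.37 points in HRO and 1.01 ± 0.719 in WTO (1.85 points, exact permutation p = 0.0524), and within pools it was 2.15 in WBM_2 and 0.82 in WBM_4 (mean 1.49, p = 0.0417, the smallest that 24 arrangements allow). For immature minus early neutrophils it was 3.73 points (exact permutation p = 0.0667; within pools 0.39, p = 0.292).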

How the results depend on the processing

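Of 1916 alternative values over 192 results, 1676 kept their direction and their side of the threshold (or, for a count, stayed within 1.5 times), 151 no longer passed, 23 newly passed, 55 moved and 11 changed sign; 3 of the 11 were single genes. No paired analysis was possible because HRO and WTO share no hashtag number and HRY and WTY share 1 number inside a pool; class comparisons have the hashtag sample as a replicate block, and without the block, with the pool as a term, no count of ribosomal protein genes called moved by over 1.5 times. With the stricter gate 4 or 5 sample pairs remained, too few to pass 0.05, at -4.58, -23.5, -25.5 and -9.42 points for early, immature and mature neutrophils and monocytes against progenitors; likewise within WBM_1 alone, with 2 or 5 pairs, at -8.58, -33, -31.6 and -12.2 points, -0.131 for mature against immature neutrophils, -25.7 for immature against early neutrophils and 5.36 for mature B against pro-B and pre-B cells, which stood at 2.48 without WBM_1. Mature B cells against progenitors passed at -3.55 points without HRO.7 and HRO.8, but these were the only samples on the higher side, so the p was fixed by leaving them out. For HRO against WTO the share difference turned round in early neutrophils (0.843 in WBM_2, 0.964 in WBM_4, 0.903 within pools), in WBM_4 for mature neutrophils (0.169) and monocytes (0.558), and in early erythroid cells within WBM_4, within pools and without WTO.3 (0.241).

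Counts of genes called moved as follows, and the cause was not tested. Higher in early neutrophils than in progenitors were 5 (DESeq2), 26 (no filter), 43 (without WBM_2) and 28 (without WBM_4). Lower in monocytes were 78, 24, 14 and 22 in the same settings. Lower in pro-B and pre-B cells were 76 (DESeq2) and 4 (without WBM_1), and in mature B cells 23 and 5. Higher in early erythroid cells were 24 (DESeq2), 56 (without WBM_2) and 22 (without WBM_4), and in mature B against pro-B and pre-B cells 8 (without WBM_1) and 32 (without WBM_2). For HRO against WTO, early neutrophils had 2 (no filter) and 4 (DESeq2) genes higher; immature neutrophils 0 (no pool term), 53 (DESeq2) and 10 (without HRO.7 and HRO.8); monocytes 5 (no filter), 0 (no pool term) and 5 (without HRO.7 and HRO.8); and mature B cells 19 (no filter), 5 (no pool term) and 44 (DESeq2). Rps9 in mature neutrophils against progenitors turned to -0.31 by DESeq2, and Mrps18c in immature against early neutrophils to -0.06 by DESeq2 and -0.02 without WBM_4.

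Leaving out 1 sample at a time, share differences in points ranged from -5.64 to -4.65 (early neutrophil), -25.5 to -23.2 (immature), -27.4 to -25.5 (mature), -10.5 to -9.49 (monocyte), -10.8 to -9.65 (pro-B and pre-B), -2.46 to -0.776 (mature B), -1.52 to -0.652 (early erythroid) and -25.4 to -23.6 (late erythroid) against progenitors, -20.3 to -19.5 for immature against early and -1.49 to -1.14 for mature against immature neutrophils, -22.8 to -22.2 for late against early erythroid, and 3.71 to 5.11 for mature B against pro-B and pre-B cells. For HRO against WTO they ranged from -3.77 to -0.204 (early neutrophil), 0.704 to 1.32 (immature), -1.07 to -0.257 (mature), -3.46 to -1.04 (monocyte), 3.11 to 5.96 (mature B) and -3.45 to 0.241 (early erythroid), and genes called higher from 0 to 1, 0 to 37, 0 to 0, 2 to 15, 0 to 55 and 0 to 0 in the same order.

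Depth limits Rpl3l, Rpl10l and Rpl39l, with few UMIs in most classes, and the late erythroid class, with 96 cells. The stricter gate gave no value for the late erythroid class, nor did leaving out WBM_1, which holds all of its samples.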

Other observations

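Other marker-defined classes were measured but compared with none. T or NK cells had a median ribosomal protein share of 23.9% over 15 samples, plasmacytoid dendritic cells 24.1% over 8, conventional dendritic cells 21.4% over 3, basophils or mast cells 25.8% over 3, macrophages 15.5% over 4 and plasma cells 10.7% over 5 (8.84% to 16.9%).

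The 2 hashtag samples without a group, HR.7 (WBM_3) and HR.AE (WBM_2), were not compared. HR.7 had a share of 20% in progenitors, 21.6% in early neutrophils, 6.49% in immature and 5.93% in mature neutrophils, 16.3% in monocytes, 22% in early erythroid cells (954 cells) and 18.1% in late erythroid cells. HR.AE had 23.8% in progenitors (429 cells) and 25% in basophils or mast cells (342 cells).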
